A study of Mus musculus with 4 samples.

Results

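Lamina-associated domains (LADs) of wild-type (WT) hepatocytes that survived in the Tm7sf2/NET47 knockout (KO) but had lost one or both of their outermost stretches were examined through 1500 lost edges. A lost edge is a stretch of a WT LAD that begins exactly at one border of that LAD, ends inside it, is at least 10 kb long and belongs to no KO LAD. The edges were selected on the difference between the WT and the KO LAD lists, so the loss itself, its size and its position are given as descriptions with no test. They make up 22.2% of the 6742 regions on chromosomes 1 to 18 that are LAD in WT only. Of the others, 4385 lie inside a WT LAD and 857 are whole WT LADs. Over all chromosomes the WT-only list holds 7787 regions, and 244 further edges on chromosomes 19, X and Y were set aside by the rule.

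The data are LaminB1-DamID profiles of primary mouse hepatocytes, the parenchymal cells of the liver. Both genotypes were on the C57BL/6 background and 12 to 16 weeks old. The cells were left 24 h with lentivirus encoding either Dam-LaminB1 or Dam alone, and were harvested at 60 h. Each of the 4 libraries pooled the DNA of 4 mice, so there was 1 Dam-LaminB1 and 1 Dam-only library for each genotype and no replicate. No difference between WT and KO can therefore be set against a spread between animals. All 4 mice of a library share its errors, and intervals on shares cover counting error only. A LAD list carries no expression values, so the hepatocyte identity of the cells could not be checked against marker genes.

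The nuclear lamina is a meshwork of lamins and membrane proteins under the inner nuclear membrane, and the chromatin that touches it is mostly gene-poor and silent. In DamID, a bacterial adenine methylase fused to LaminB1 marks GATC sites near the lamina, and the Dam-only cells correct for accessibility. The edge of a LAD is where lamina contact gives way to the nuclear interior, and active promoters often sit just beyond it. Tm7sf2, also called NET47, is a sterol reductase of cholesterol synthesis and a nuclear envelope transmembrane protein.

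The WT list held 7132 LADs on chromosomes 1 to 18, covering 1325 Mb, and the KO list held 14348 LADs covering 1354 Mb, so KO LADs were more numerous over a similar length. The median LAD was 39.9 kb in WT and 38.7 kb in KO. The lists give no read counts, so the depth behind any single border is unknown here; the study states fewer usable reads for KO than for WT, and the part of depth in the position of the borders was not tested.

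Almost all borders lay where the assay has a site. Of the 1500 WT borders at lost edges, 1493 (99.5%) lay within 4 bases of a GATC. So did 99.1% of the 8920 WT borders that stayed inside a KO LAD. Unknown bases of the assembly lay at 7 of the borders at lost edges and at 109 of those that stayed. The sequences around the WT and KO borders of the 3 longest lost edges are shown because they are the ends of the measured shift. Each run holds 30 bases on either side of the border on the plus strand of mm9, and capitals mark GATC, the site that Dam methylates and that reads the same on both strands.
Sdk1 edge, WT border, chr5:142650412-142650471: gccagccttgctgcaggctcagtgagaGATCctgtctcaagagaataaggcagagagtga
Sdk1 edge, KO border, chr5:142511567-142511626: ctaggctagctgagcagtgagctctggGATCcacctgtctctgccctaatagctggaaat
chromosome 7 edge without a gene, WT border, chr7:143584129-143584188: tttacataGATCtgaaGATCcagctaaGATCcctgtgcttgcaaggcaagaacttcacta
chromosome 7 edge without a gene, KO border, chr7:143449759-143449818: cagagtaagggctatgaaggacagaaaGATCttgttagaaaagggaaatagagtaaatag
Abca15 and Abca16 edge, WT border, chr7:127603648-127603707: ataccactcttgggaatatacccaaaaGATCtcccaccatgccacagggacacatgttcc
Abca15 and Abca16 edge, KO border, chr7:127479164-127479223: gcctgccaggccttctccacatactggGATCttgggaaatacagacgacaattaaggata
In all 6 runs a GATC spanned the border. The second WT border held 3 GATC sites in 60 bases, and each other run held 1. Between the borders of the Sdk1 edge lay 342 GATC sites over 138.8 kb, and the median lost edge held 46 sites (quartiles 34 and 69), so that even short edges were covered by many sites.

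Ends of WT LADs were lost far less often than they were extended. Of the 12550 ends of WT LADs that kept any KO LAD, 12% were lost by 10 kb or more (95% Wilson interval, 11.4 to 12.5%). A further 2130 ends (17%) were trimmed by less than 10 kb, with a median of 3.77 kb. The KO LAD ran past the WT border by 10 kb or more at 6316 ends (50.3%), which is 4.21 extended ends for each lost one, and the median of those extensions was 46.8 kb. The lost edges were split evenly, with 750 at the low-coordinate and 750 at the high-coordinate end of the LAD. The 10 kb minimum did not fall at a break in the values. The shortest lost edge was 10003 bp and the longest trimmed stretch was 9973 bp, with 113 ends lost by 10 to 11 kb and 131 by 9 to 10 kb.

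The share of ends lost varied with the length of the LAD. Only 3.51% of the ends of LADs of 10 to 20 kb were lost (97 of 2764), where the minimum leaves little room for an edge. The share was 12.7% in LADs of 20 to 50 kb, 17.9% in LADs of 50 to 100 kb (16.4 to 19.6%), 14.6% in LADs of 100 to 500 kb and 12.1% in LADs of 500 kb and over (10.4 to 13.9%). Extension by 10 kb or more stayed between 49.1% and 52.4% in all 5 length classes.

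**Figure D1:**
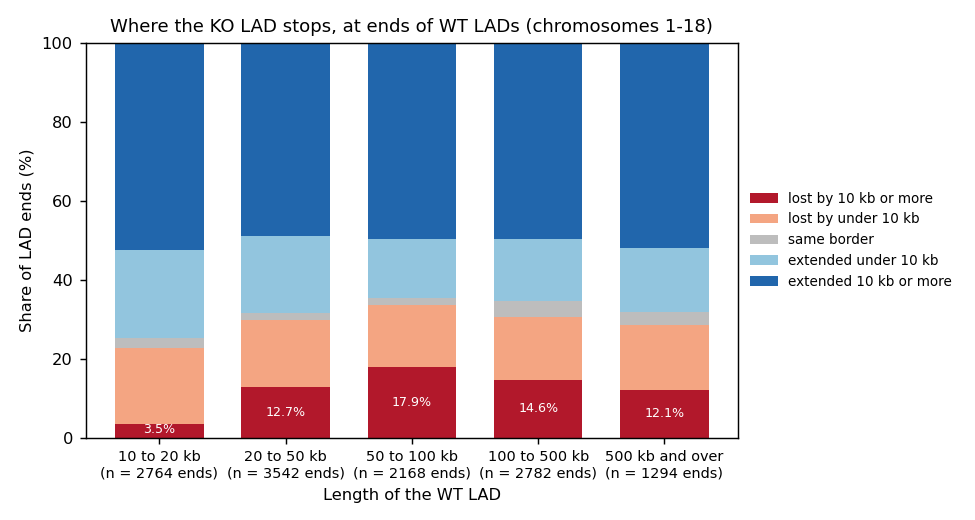
Share of WT LAD ends (percent, y axis) by what the KO LAD did there, in 5 classes of WT LAD length (x axis). The red parts are the lost edges, from 3.51% in the shortest class to 17.9% at 50 to 100 kb, while the dark blue part stays near 50.3%.

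Most lost edges were short, and a few were very long. Their median length was 18.6 kb (quartiles 13.7 and 27.6 kb), and together they covered 34.9 Mb, or 2.63% of the WT LAD bases of these chromosomes. There were 675 edges of at least 20 kb, which held 66.2% of the lost bases, 89 of at least 50 kb and 7 of at least 100 kb. The LADs that carried them had a median of 71.1 kb. An edge took a median of 31.8% of its LAD (quartiles 11.5 and 58.3%), ranging from 0.256% to 99.9%. In 478 cases (31.9%) the edge was more than 50% of the LAD.

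**Figure D2:**
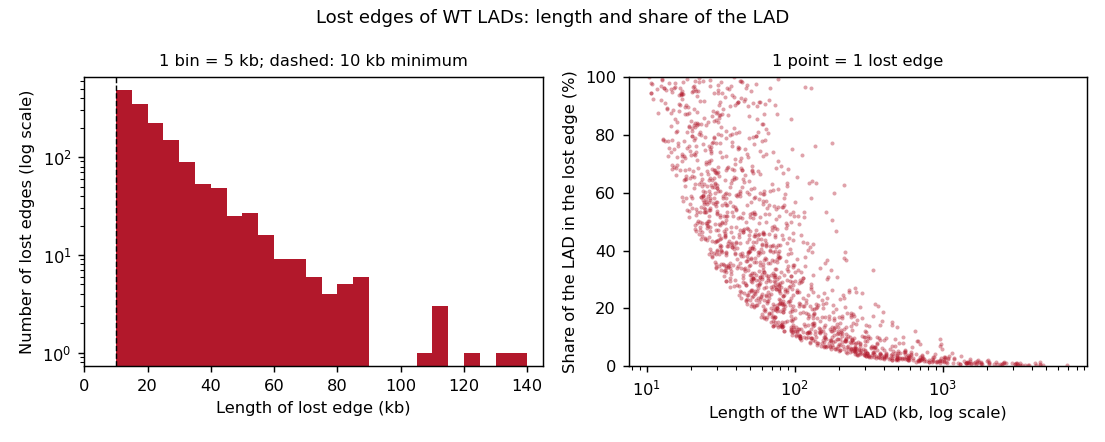
Left, number of lost edges (log scale) by length in bins of 5 kb, with the 10 kb minimum dashed. Right, the share of the LAD that the edge takes (percent) against LAD length (kb, log scale), 1 point per edge, with the empty lower left corner set by the minimum. The 7 edges of at least 100 kb form the thin tail on the left.

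What remained of these LADs was largely intact. The 1500 edges came from 1405 LADs, of which 1310 lost 1 edge and 95 lost both. Outside the lost edge, a median of 98.5% of the LAD was still KO LAD (quartiles 80.3 and 100%), and in 962 cases (64.1%) this remainder was 1 KO LAD. The WT gap beyond the edge had a median of 22.7 kb, and the KO gap that took its place had a median of 50.8 kb. In 769 of 1499 cases (51.3%) a KO LAD lay within that WT gap, and in 385 of them (25.7% of the 1499) the KO gap was shorter than the WT gap had been.

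Some ends facing each other across a WT gap were lost together. The end across the WT gap was also lost by 10 kb or more for 298 of 1499 lost edges (19.9%, 17.9 to 22.0%), against 611 of 8898 kept ends (6.87%, 6.36 to 7.41%). Here and below, kept ends are those whose WT border stayed inside a KO LAD. The neighbouring LAD had gone whole for 18.8% of lost edges and 7.62% of kept ends. Facing ends share a gap, so these counts are not independent. Where a KO LAD bridged the WT gap, both of its ends count as kept, so part of this contrast follows from the definitions. Of the ends of all WT LADs, 10.5% were lost by 10 kb or more. A WT gap of at least 100 kb lay outside 19.2% of lost edges (17.3 to 21.3%) and 16.9% of kept ends (16.1 to 17.7%), and these intervals overlapped. They did not overlap when lost edges of any length were counted (20.6%, 19.4 to 22.0%), nor in LADs of at least 100 kb (17.6%, 14.7 to 21.0%, against 11.1%, 10 to 12.3%). Where the gap was 500 kb or more, 112 of 627 ends were lost (17.9%, 15.1 to 21.1%), against 10.8 to 12.5% in the 4 classes of narrower gaps.

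Lost edges were unevenly placed. Over 225 segments of 10 Mb with at least 20 ends, the median share of ends lost was 10.2% (quartiles 6.67 and 16.1%), and 5 segments held no lost edge. The highest share was on chromosome 5 at 140 to 150 Mb, where 21 of 50 ends were lost (42.0%, 29.4 to 55.8%), followed by chromosome 9 at 100 to 110 Mb with 26 of 71 (36.6%, 26.4 to 48.2%). Chromosome 7 followed with 19 of 58 ends at 140 to 150 Mb and 14 of 43 at 130 to 140 Mb. By chromosome the share ran from 7.38% on chromosome 3 to 17% on chromosome 7, and chromosome 7 also had the most edges of at least 50 kb, 14 of the 89. In the last 10 Mb of the chromosomes 170 of 946 ends were lost (18%, 15.7 to 20.5%), compared with 11.5% (10.9 to 12.2%) away from the last 10 Mb and the first 13 Mb.

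The base composition of lost edges differed slightly from that of kept ends. The median GC content was 42.1% in lost edges (quartiles 40.0 and 44.1%) and 41.4% in a stretch of 18.6 kb, the median edge length, inside kept ends (quartiles 39.6 and 43.4%). The difference of 0.687 percentage points was small beside the spread among ends. It had the same sign on 15 of the 18 chromosomes and ran from -0.172 on chromosome 18 to 1.46 on chromosome 5. It was also present in each of the 5 classes of LAD length, for example 40.9% against 39.7% in LADs of 500 kb and over. In 1262 edges with 8 kb of LAD left beyond the KO border, the median GC was 42.5% in the 8 kb outside the LAD, 41.9% in the first 8 kb of the edge and 41.6% in the 8 kb past the KO border. The lost stretch exceeded the part past the KO border in 52.3% of them (49.5 to 55.0%), an interval that includes 50%.

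GATC sites, the positions the assay can read, were slightly fewer in lost edges. The first 10 kb inside the border held a median of 2.5 sites per kb at lost edges and 2.6 at kept ends, with the lower median at lost edges on all 18 chromosomes. The part of this site density in the loss was not tested. CpG dinucleotides had medians of 7.4 and 7.5 per kb over the same 10 kb, and the lost edges had the lower median on 11 of 18 chromosomes. The letters AGGGGGC, the core of the motif bound by the insulator protein CTCF, were searched on both strands. They occurred in the first 10 kb of 50.6% of lost edges (48.1 to 53.1%) and 48.3% of kept ends (47.3 to 49.4%), intervals that overlap.

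Lost and kept ends also differed beyond the WT border, in the density of gene starts. In the 20 kb beyond the WT border there were 220 transcription starts of protein-coding genes at lost edges, or 7.34 per Mb, and 2438 at kept ends, or 13.7 per Mb. At least 1 start lay there for 200 of 1500 lost edges (13.3%, 11.7 to 15.1%) and for 24.2% of kept ends with a WT gap beyond them (23.3 to 25.1%). The density was lower at lost edges on all 18 chromosomes. It was 6.51 per Mb outside whole lost LADs and 8.59 outside trimmed ends. Among kept ends it was 6.15 per Mb outside the 325 with the same border in KO, below the lost edges. It was 12.6 outside ends extended by less than 10 kb and 14.4 outside ends extended by 10 kb or more. At kept ends the starts peaked at 24.7 per Mb in the 2 kb bin centred 5 kb outside the border, while the same bin at lost edges held 36 starts, or 12 per Mb. Between 20 and 50 kb outside, the densities were 7.87 and 7.44 per Mb.

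This contrast was smaller at the widest WT gaps. Where the gap was under 20 kb, starts numbered 4.84 per Mb outside lost edges and 12.1 outside kept ends. Where it was 20 to 100 kb they numbered 6.74 and 14.6 per Mb, with a start at 12.3% of lost edges (9.78 to 15.4%) and 25.1% of kept ends (23.5 to 26.6%). Where it was 100 kb or wider they numbered 14.4 and 16.7 per Mb, and the shares of ends with a start, 24.7% (20.0 to 29.9%) and 29.6% (27.4 to 32.0%), overlapped. Leaving out olfactory and vomeronasal receptor genes, which lie in dense clusters, gave 7.03 and 13.4 per Mb. The 20 kb windows were not cut at the far side of the gap, so in gaps under 20 kb they ran into the next WT LAD. In narrow gaps the windows of 2 facing ends overlapped, so some starts were counted at both.

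**Figure D3:**
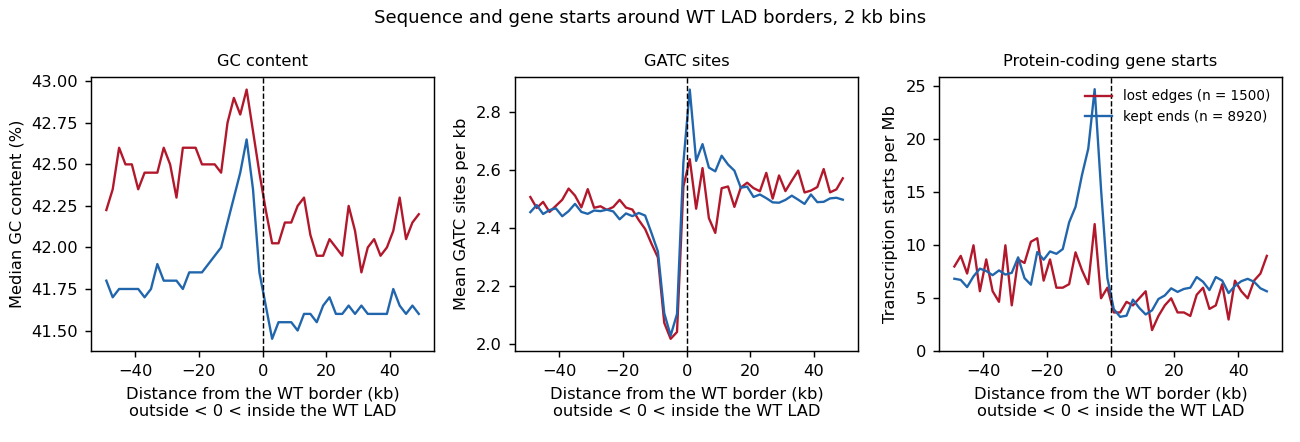
Median GC content (percent), mean GATC sites per kb and protein-coding transcription starts per Mb in 2 kb bins, by distance from the WT border (kb, negative outside the LAD), for 1500 lost edges (red) and 8920 kept ends (blue). Red lies above blue in GC on both sides of the border, and the peak of starts just outside kept ends, 24.7 per Mb, is 12 per Mb at lost edges.

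Inside the LAD, lost edges and kept ends held similar densities of genes. Of the 20694 protein-coding genes of chromosomes 1 to 18, 135 had their transcription start in a lost edge (0.652%), a density of 3.87 starts per Mb beside 3.97 per Mb inside kept ends. No protein-coding gene reached into 854 of the edges (56.9%, 54.4 to 59.4%), compared with 56.2% of the kept stretches. A gene ran across the WT border at 538 lost edges (35.9%, 33.5 to 38.3%) and at 37.6% of kept ends. Where the genes across the border shared 1 direction, they were transcribed out of the LAD at 255 lost edges and into it at 278, giving 47.8% outward (43.6 to 52.1%). At kept ends 41.8% were outward (40.1 to 43.5%), an interval that does not meet the first. Of the 135 starts in lost edges, 65 belonged to genes transcribed out of the LAD (48.1%, 39.9 to 56.5%), against 51.4% of starts inside kept ends.

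At least 1 base of a lost edge overlapped 569 protein-coding genes (2.75% of all), or 9.29% of the 6128 that overlap a WT LAD. Most of them were long genes with a part in the edge. Their median length was 103 kb, against 13.9 kb for all genes that overlap a WT LAD, and a median of 18% of the gene span was lost. No exon of the 1 transcript used for each gene lay in the edge for 139 of them (24.4%), and 444 (78%) still overlapped a KO LAD. Only 69 genes lay whole in a lost edge.

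The 7 edges of at least 100 kb show the range of gene contents. The longest, chr5:142511597-142650441, took 77.4% of a LAD of 179 kb and lay within Sdk1, which encodes a neuronal adhesion protein of the immunoglobulin superfamily. It held 21 of the 45 exons of Sdk1. The other end of the same LAD lost 24.3 kb with 3 more exons, and 16.3 kb of KO LAD were left. The next, chr7:143449789-143584158, was 134 kb long and held no protein-coding gene. The third, chr7:127479194-127603677, took 96.3% of its LAD and held most of Abca15 and 10 of the 30 exons of Abca16, which encode ABC transporters.

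A stretch of 113 kb at chr7:138171610-138284862 held the whole of Dmbt1, a secreted glycoprotein of mucosal surfaces, and 1 of the 3 exons of 4933402N03Rik. It also lay within the annotated span of Fgfr2, a fibroblast growth factor receptor, without touching an exon of it; this annotation gives Fgfr2 a span of 3009 kb. Dab1, the adaptor of reelin signalling in neurons, had 110 kb of 1 edge on chromosome 4 and 35.8% of its span in lost edges, with no exon in any of them. The remaining edges of this size were both on chromosome 5, in the Cyp3a cluster.

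**Figure D4:**
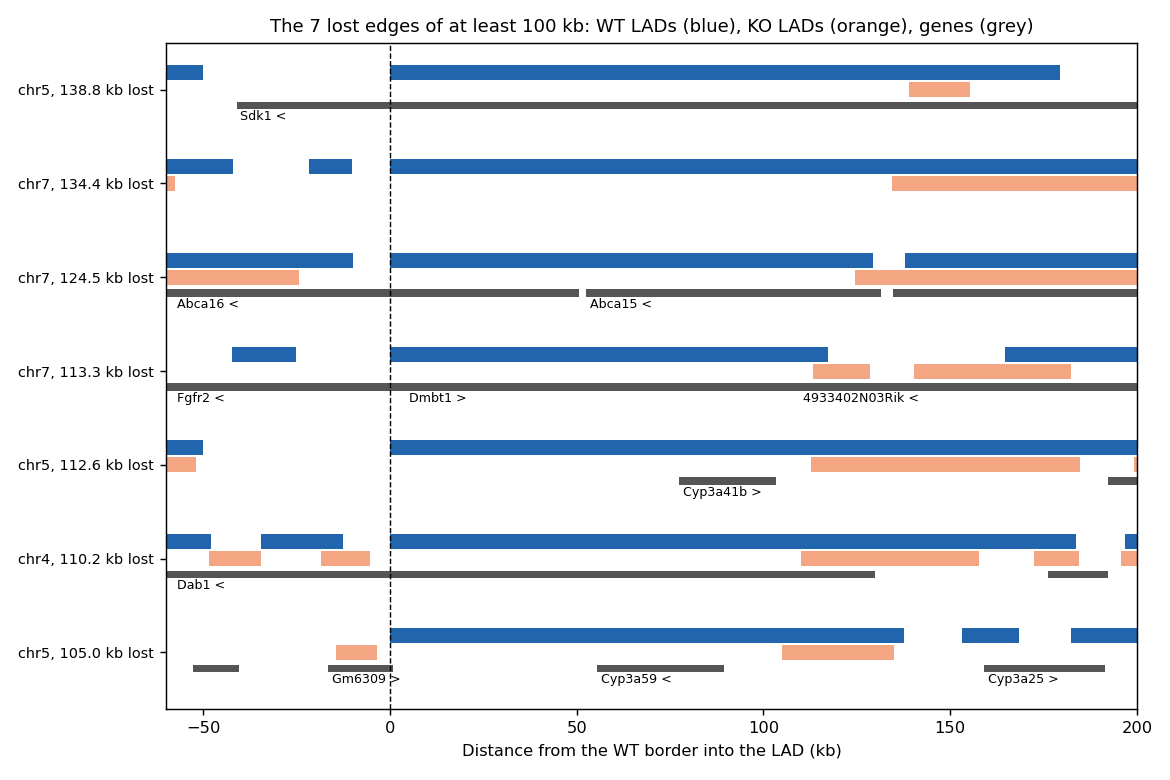
WT LADs (blue), KO LADs (orange) and protein-coding genes (grey, arrowheads for the direction of transcription) around the 7 longest lost edges, aligned at the WT border and drawn against distance into the LAD (kb). The lost edge is the blue bar to the right of the dashed line as far as the first orange bar, from 138.8 kb in the top row to 105.0 kb in the bottom row.

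The products of cytochrome P450 genes oxidise drugs, steroids, fatty acids and bile acid precursors in the liver. Among the 21 gene groups other than the study's own released genes with raised expression, P450 genes had the highest share reached. Of the 73 on chromosomes 1 to 18, 10 overlapped a lost edge (13.7%) beside 2.75% of all protein-coding genes, and 6 started in one. Of the 31 that overlap a WT LAD, the 10 are 32.3%, beside 9.29% of all genes that overlap one. On that base the lipid and fatty acid genes stood higher, with 2 of only 3 genes. The 10 P450 genes lay in 10 edges of 9 LADs, and neighbours in a cluster are not independent of each other. The study itself reports P450 genes, Cyp4a10 among them, as released in these samples. The raised expression it reports for them came from earlier microarrays of livers, not from these libraries. The groups were chosen with earlier results of these data known, so the rank of P450 genes is not independent evidence.

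Genes of the Cyp3a family, the main drug-oxidising P450s, accounted for 5 of the 10. In a run of neighbouring LADs at distal chromosome 5, 5 edges were lost. One LAD, chr5:146083525-146422975, lost both of its edges. Its first edge, 59.1 kb, held 80.6% of Cyp3a57 with the start and 11 of 13 exons, and its last edge, 113 kb, held all of Cyp3a41b. Beyond a gap of 50 kb between WT LADs, the next LAD lost 19.4 kb with 76.1% of Cyp3a11 and 10 of its 13 exons, but not its start. The LAD that followed lost 24.2 kb with 27.6% of Cyp3a25. The last, chr5:146842576-146980230, lost 105 kb with the whole of Cyp3a59. Cyp3a genes are near-identical copies of each other, so reads may have been shared between them and the split of signal among copies is uncertain.

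The other P450 genes lay on chromosomes 3, 4 and 7. An edge of 44.0 kb held the whole of Cyp2b23. On chromosome 4, 92.6% of Cyp4a10, a fatty acid omega-hydroxylase, lay in an edge of 15.1 kb that began 1.13 kb downstream of its start, so that 12 of 13 exons but not the start were in the edge. Smaller parts of Cyp4x1 (30.9%) and Cyp4a12b (25.9%) were lost with their starts. Cyp7b1, the oxysterol hydroxylase of the acidic bile acid pathway, had 16.4% of its span in an edge of 28.1 kb without an exon.

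In the other groups of liver genes the counts were small. In phase II conjugation, 2 of 54 genes overlapped a lost edge (3.70%, beside 2.75% of all genes): Sult1e1, the estrogen sulfotransferase, with 90.2% of its span and its start, and Ugt2a1, a glucuronosyltransferase, with 59.5%. Among 79 ABC, SLC10, SLC22 and SLCO transporters there were 3 (3.80%), Abca15 (91.1%), Abca16 (48.2%) and Slco1a4 (55.3%), the last an organic anion transporter. No lost edge reached any of 59 serpins, 20 carboxylesterases, 26 genes of glucose and insulin regulation, 30 liver transcription factors, 22 hepatocyte markers or 16 genes of cholesterol synthesis. Of the serpins, 24 overlap a WT LAD and so could have been reached. Only 3 carboxylesterases, 4 genes of glucose and insulin regulation, 3 liver transcription factors and 3 hepatocyte markers do. None of the genes of cholesterol synthesis does. Of 19 markers of other liver cells, 6 overlap a WT LAD and 1, the macrophage receptor Marco, had a lost edge at its start (20.0% of its span), with 75.8% of it newly within KO LAD.

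Among 35 genes of lipid and fatty acid metabolism, 2 were reached (5.71%), Hao2 and Ppargc1a. Hao2, a peroxisomal hydroxyacid oxidase, had 68.3% of its span and 7 of 9 exons in an edge of 12.7 kb. The start of Hao2 lay outside the WT LAD, 0.141 kb from the nearest KO LAD. Ppargc1a, the transcriptional coactivator that drives gluconeogenesis and mitochondrial biogenesis, met 3 lost edges of 3 separate LADs. They were chr5:51849780-51872177 (22.4 kb), chr5:51899931-51916203 (16.3 kb) and chr5:51949706-51990132 (40.4 kb), together 42.2% of its span, and the third held its start. The start was 31.2 kb from the nearest KO LAD. Bicc1, an RNA-binding protein, had 16.7% of its span but no exon in lost edges. Its start lay within a KO LAD, and 52.2% of its span was in KO LADs. Cyp4a10, Hao2, Ppargc1a and Bicc1 are among the genes that the study itself picked for loss of lamina contact in these samples. Raised expression in earlier liver microarrays was its other criterion. The presence of these genes is therefore not independent evidence.

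Promoters of 3 genes that start in a lost edge are shown because they are the regulatory sequences that left the LAD with the edge. They were taken from RefSeq on GRCm38.p6, run from 250 bases before to 50 bases after the start on the strand of the gene, and each matched mm9 exactly at 1 place, given here, which lay whole in a lost edge. Capitals mark CpG.
Ppargc1a, chr5:51958915-51959214, minus strand: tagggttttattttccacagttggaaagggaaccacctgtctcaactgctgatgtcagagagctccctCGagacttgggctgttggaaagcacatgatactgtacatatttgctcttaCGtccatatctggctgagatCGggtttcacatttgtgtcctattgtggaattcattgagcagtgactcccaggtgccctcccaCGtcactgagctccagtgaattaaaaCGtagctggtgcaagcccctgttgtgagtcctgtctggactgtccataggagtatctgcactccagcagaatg
Abca16, chr7:127552911-127553210, plus strand: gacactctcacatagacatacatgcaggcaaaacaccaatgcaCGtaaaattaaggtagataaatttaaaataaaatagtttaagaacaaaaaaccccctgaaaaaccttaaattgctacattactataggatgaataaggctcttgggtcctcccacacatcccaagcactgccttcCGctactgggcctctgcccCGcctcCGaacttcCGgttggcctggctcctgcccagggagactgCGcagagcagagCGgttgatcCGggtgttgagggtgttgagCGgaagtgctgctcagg
Nlrp9c, chr7:27188670-27188969, minus strand: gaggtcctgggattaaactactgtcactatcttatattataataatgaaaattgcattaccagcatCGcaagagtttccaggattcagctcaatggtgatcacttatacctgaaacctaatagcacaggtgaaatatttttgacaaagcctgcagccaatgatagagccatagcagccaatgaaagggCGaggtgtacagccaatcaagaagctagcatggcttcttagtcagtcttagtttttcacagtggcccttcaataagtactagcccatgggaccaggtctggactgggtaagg
Ppargc1a held 5 CpG, Abca16 held 9 and Nlrp9c, which encodes an NLR protein, held 2, beside a median of 7 over the 32851 promoters of the RefSeq table. Each held 1 GATC, and 48.0% of all these promoters held at least 1. The starts of Abca16 and Nlrp9c lay 74.0 kb and 16.9 kb from the nearest KO LAD.

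Genes that started in a lost edge with the longest stretch inside it included, besides Dmbt1, Abca16, Nlrp9c and the Cyp3a genes, Pik3r4, Cdrt4 and Musk. Pik3r4, the regulatory subunit of the class III phosphoinositide 3-kinase, had 80.5% of its span and 15 of 20 exons in an edge of 36.3 kb, and its start was 0.355 kb from a KO LAD. Musk, the receptor kinase of the neuromuscular junction, had 29.2% and Cdrt4 had 84.0%. Krt39 and Krt40, hair keratins, lay whole in 1 edge on chromosome 11 and were the only 2 of 97 keratin genes reached. Tcp10b (52.3 kb edge) and Fbxw14 (19.2 kb edge) were also whole within theirs.

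Receptor genes are short and fill many LADs, and few of them were reached, although those reached were mostly whole in the edge. Of 1041 olfactory receptor genes, 980 overlap a WT LAD and 23 overlapped a lost edge (2.21% of the 1041, beside 2.75% of all genes), 17 of them whole, among them Olfr1340, Olfr1357, Olfr1368 and Olfr1375-ps1. Of 326 vomeronasal receptor genes 3 did (0.920%), Vmn1r46, Vmn1r55 and Vmn1r137, all whole. Olfactory receptor genes have a median length of 0.963 kb, against 15.6 kb for all genes. Of the 1041, 19 (1.83%) started in a lost edge, beside 0.652% of all genes. Among genes that overlap a WT LAD, that is 19 of 980 olfactory receptor genes beside 135 of 6128 genes, which shows no excess. None of 53 defensins overlapped a lost edge, although 37 overlap a WT LAD. Copies in these families are similar enough for reads to be shared.

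Long neuronal genes made up another part. Of 188 ion channel and neurotransmitter receptor genes, 17 overlapped a lost edge (9.04%), beside 2.75% of all protein-coding genes. So did 5 of 53 synaptic adhesion genes and 3 of 33 protocadherins and cadherins. None of these 25 had its start in a lost edge. Of the genes in each group that overlap a WT LAD, 19.3%, 15.6% and 14.3% were reached, beside 9.29% of all such genes. The genes of these groups are long, with medians of 50.3, 93.0 and 93.5 kb against 15.6 kb for all genes, and each lost only a part. Kcnj15, a potassium channel, had 25.1% of its span in lost edges, Gria1, a glutamate receptor subunit, 23.4%, Grin3a 13.6% and Glra1, a glycine receptor subunit, 13.5%. Pcdh7 had 19.2%, Cntnap5b 6.13%, Lphn3 4.95%, Pcdh9 2.95%, Cdh4 2.65%, Dlgap1 1.70% and Dlgap2 1.63%. Of 355 Zfp zinc finger genes 14 overlapped a lost edge (3.94%, or 14.4% of those that overlap a WT LAD). They were led by Zfp369 (86.0%), Zfp935 (76.4%), Zfp945 (75.8%) and Zfp788 (62.7%), and 1 of the 14 had its start in the edge. No cell cycle gene (of 30) and no ribosomal protein gene (of 75) was reached. No cell cycle gene and only 3 of the ribosomal protein genes overlap a WT LAD, so almost none could have been reached.

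**Figure D5:**
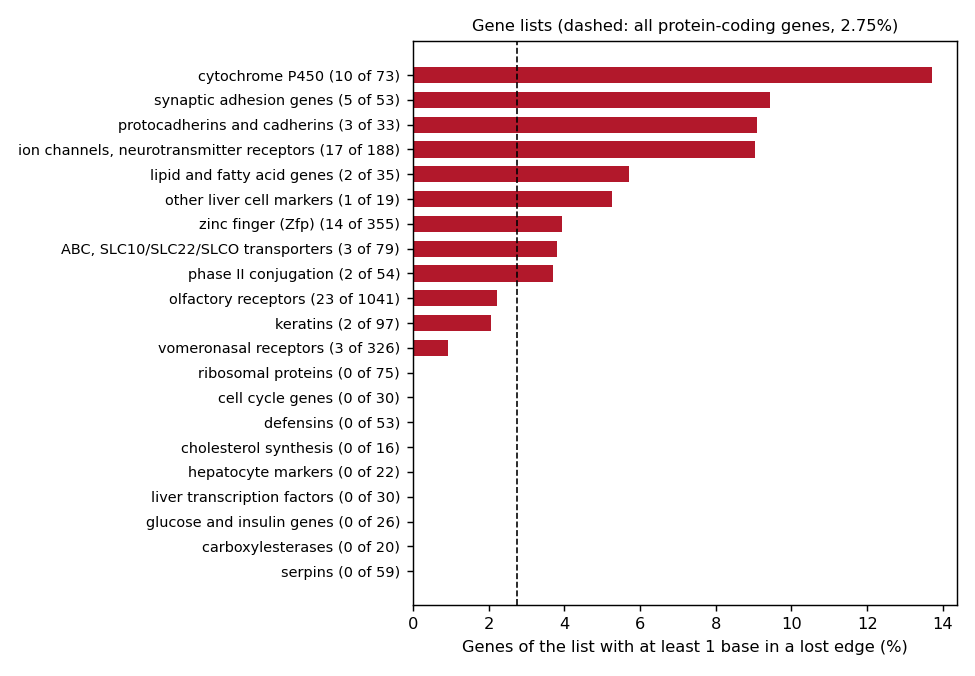
Share of the genes of each group with at least 1 base in a lost edge (percent), with the counts beside the names and the 2.75% of all protein-coding genes as a dashed line. Cytochrome P450 genes stand at 13.7% and olfactory receptors at 2.21%, and 9 groups are at 0. Among these are the cell cycle and cholesterol synthesis genes, none of which overlaps a WT LAD.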

How the data were processed

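DamID libraries of WT and KO primary hepatocytes were made and sequenced by the authors, who aligned reads with BWA to mm9 and called LADs from the ratio of Dam-LaminB1 to Dam-only signal by circular binary segmentation; the submitters' processing notes also name limma, and no versions are given in the sources used here. The deposited files are lists of intervals (chromosome, start and end) of WT LADs, KO LADs and the regions of at least 10 kb found in only one of them, with no read counts or scores. Positions are given from 1.

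Lost edges were found as WT-only regions sharing exactly 1 border with the WT LAD that holds them, and the same 1500 came from subtracting the LAD lists. All LAD ends were classed by the distance from the WT border to the KO LAD. These steps were run on simulated LADs and compared base by base (1342 ends, 0 errors). Sequence was read from NCBIM37 (mm9) and genes from GENCODE vM1, with the 5′ end of the gene span as its start. Exons were those of 1 protein-coding transcript per gene, the one with the most exon bases. Statements about exons hold for that transcript only. Windows with over 50% unknown bases were left out. Kept ends were measured over 18.6 kb, or the whole LAD where shorter (21.6%).

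With 1 pooled library pair for each genotype no test between genotypes was run. Shares carry 95% Wilson intervals, and regional differences are given with the number of chromosomes sharing their sign. The edges and gene lists were chosen with earlier results of these data known. Named genes were those in the 5 longest edges, the 10 starting in an edge with the longest stretch inside, genes of the study's own tables, up to 4 of each list by share of span, and the 10 longest lying whole in an edge. Some genes that this rule names are not reported here. Alternatives varied the minimum length, joined LADs, the chromosomes, LAD length, gene overlap, window and gap width. Python 3.11.15, NumPy 2.4.6 and SciPy 1.17.1 were used.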

Additional observations from a re-analysis of the deposited data

How the results depend on the processing

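The number, length and share of the LAD of the lost edges, the share of ends lost, the wide gaps outside, the GC difference, the counts of genes, the genes across the border and the direction of starts were recomputed with no minimum length, with minima of 20 and 50 kb, with LADs joined across gaps of up to 20 or 50 kb, on all 21 chromosomes, and in WT LADs of at least 100 kb. Facing ends, position on the chromosome, the classes of LAD length and gap width, the direction of genes across the border, GATC, CpG and motif counts, and the gene groups other than P450 were computed under 1 definition only. No paired analysis was possible because each genotype has 1 library pair, and for the same reason no replicate could be left out.

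The number of lost edges was 3630 with no minimum, 675 and 89 with minima of 20 and 50 kb, 588 after joining across 50 kb and 563 in LADs of at least 100 kb. The share of ends lost was then 28.9%, 5.38%, 0.709%, 14.8% and 13.8%; it was 14.9% after joining across 20 kb and 10.5% with the ends of all WT LADs counted. The median length was 7.73 kb with no minimum, 29.0 and 60.2 kb with the 2 minima and 29.2 kb after joining across 50 kb. The median share of the LAD was 11.9% with no minimum, 50.6% with the 50 kb minimum, 21.1% and 10.7% after the 2 joins and 7.70% in LADs of at least 100 kb. Overlapping genes numbered 1017 with no minimum, 303 and 46 with the 2 minima, 330 after joining across 50 kb, 239 in LADs of at least 100 kb, 368 with at least 10% of the span in edges and 131 with at least 50%. Genes starting in an edge numbered 20 with the 50 kb minimum and 52 in LADs of at least 100 kb. With the 50 kb minimum a gene crossed the border at 29.2% of edges, and 70.0% of the 20 starts were transcribed outward (48.1 to 85.5%). A wide gap lay outside 37.3% and 66.1% of edges after the 2 joins, beside 33.1% and 61.0% of kept ends; gaps of at least 50 and 20 kb lay outside 30.2% and 53.8% of edges. In LADs of at least 100 kb a wide gap lay outside 17.6% of lost edges (14.7 to 21.0%) and 11.1% of kept ends (10 to 12.3%). The causes of these changes were not tested.

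The GC difference stayed positive under every setting run, from 0.479 to 0.949 percentage points. After the data were seen, 2 further counts were recomputed under the same 7 settings. Starts in the 20 kb outside were fewer at lost than at kept ends in all of them, least apart after joining across 50 kb (12 against 14.4 per Mb) and most with the 50 kb minimum (4.49 against 13.7 per Mb). The P450 genes reached numbered 3 with the 50 kb minimum, 6 after joining across 20 kb, 6 in LADs of at least 100 kb, 8 with the 20 kb minimum and 14 on all chromosomes.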

Other observations

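Families outside the gene lists were looked up after the genes in lost edges had been seen, so their counts describe these edges and support nothing. Of all protein-coding genes, 2.75% overlapped a lost edge, or 9.29% of those that overlap a WT LAD. Of 21 Mup genes, which encode the major urinary proteins secreted by the mouse liver, 5 overlapped a lost edge on chromosome 4, and 4 of them (Mup1, Mup5, Mup10 and Mup13) lay whole in 4 separate edges of 14.2 to 55.2 kb. Mup genes are near-identical copies, so the placement of reads among them is uncertain. Of 34 Ccl and Ccr genes, which encode chemokines and their receptors, 5 overlapped a lost edge. Among them, Ccl7 and Ccl11 lay whole in 1 edge of 23.8 kb on chromosome 11. Of 8 Slfn genes, a family induced in immune cells, 4 overlapped lost edges on chromosome 11, and Slfn1, Slfn4 and Slfn8 had their starts there. S100a8, a calcium-binding protein of neutrophils, lay whole in an edge of 23.3 kb on chromosome 3. Of 20 Fbxw genes, 6 overlapped 7 lost edges. Fewer were reached in 2 other families, 2 of 18 Nlrp genes and 2 of 27 Klk genes. A WT LAD is overlapped by 19 of the Mup genes, 12 of the Ccl and Ccr genes, 6 of the Slfn genes and 10 of the Fbxw genes. The same holds for 15 of the Nlrp genes and 19 of the Klk genes.

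Among RNA genes, 7 of 1432 miRNA genes and 3 of 1197 lincRNA genes of chromosomes 1 to 18 lay whole in a lost edge. Beside them, 69 of 20694 protein-coding genes did.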
